A study of Mus musculus with 4 samples.

Results

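Hspa1a, Hspa1b, Hsp90aa1, Hspa8, Dnajb1 and Hsph1, 6 heat-shock genes, and Fos, Jun, Junb and Egr1, 4 immediate early genes, were followed through the cell types of mouse bone marrow and spleen. These 10 of 32285 genes were chosen by name, as genes that cell preparation is known to induce. Their raw UMIs (unique molecular identifiers, 1 for each captured transcript) were summed over the cells of each marker-gated cell type in each of 4 libraries. A level is given in CPM, the UMIs of a gene per 1000000 UMIs of all genes in the same cells. The protocol tags transcripts at the 3′ end, so a count does not grow with transcript length and CPM of different genes can be set side by side.

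The libraries came from C57BL/6J mice of 6 to 8 weeks that carried MA9 leukaemia. MA9 is a model of acute myeloid leukaemia in which mouse progenitors were turned malignant with MLL-AF9, a fusion oncogene. These cells held a doxycycline-inducible hairpin against Prmt9, an arginine methyltransferase, or a control construct, and all mice drank doxycycline for 7 days, the Ctrl mice included. BM-Ctrl and BM-shPrmt9 are the bone marrow libraries, and Spleen-Ctrl and Spleen-shPrmt9 the spleen libraries. The hairpin was in the leukaemia cells and not in the host's lymphocytes or erythroid cells. Each group is 1 library from 1 representative mouse, so no difference between groups has a replicate check and no test was made. The 95% intervals printed are exact Poisson intervals for levels and exact conditional binomial intervals for ratios, and they cover counting error only, not the spread between animals, preparations or cells.

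Heat-shock proteins are chaperones that hold and refold other proteins. Unfolded protein and heat activate the transcription factor HSF1, which binds heat-shock elements (repeats of the letters GAA and TTC) and switches on Hspa1a and Hspa1b within minutes, whereas Hspa8 and Hsp90ab1 are made in all cells and Hsp90aa1 lies between these patterns. Immediate early genes need no new protein to be transcribed: growth factors, antigen receptors and handling of tissue act on them through kinases, and their products Fos, Jun and Junb form the AP-1 factors while Egr1 is a zinc-finger factor. In blood-forming tissue, erythroid cells use chaperones while they fill with haemoglobin, and lymphocytes switch on Egr1 after antigen-receptor signals.

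The upstream sequences of Hspa1a and Hspa1b are shown because these neighbouring genes, both a single exon on the minus strand of chromosome 17, were at their highest in the same cell type. They are the 250 bases before the start site, from RefSeq on GRCm38.p6, at chr17:34972157-34972406 for Hspa1a and chr17:34959239-34959488 for Hspa1b, read 5′ to 3′ on the minus strand, and capitals mark a heat-shock element core.
Hspa1a: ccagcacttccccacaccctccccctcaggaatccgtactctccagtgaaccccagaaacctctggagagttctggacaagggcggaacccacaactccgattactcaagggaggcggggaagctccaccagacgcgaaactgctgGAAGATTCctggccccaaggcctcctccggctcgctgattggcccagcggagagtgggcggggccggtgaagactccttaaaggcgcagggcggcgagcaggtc
Hspa1b: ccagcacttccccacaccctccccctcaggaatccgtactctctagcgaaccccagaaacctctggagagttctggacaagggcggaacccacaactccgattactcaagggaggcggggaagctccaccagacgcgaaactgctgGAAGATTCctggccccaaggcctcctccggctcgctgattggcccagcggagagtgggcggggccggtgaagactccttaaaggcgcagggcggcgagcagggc
The pair differed at 3 of 250 bases, and in both the core began 104 bases before the start. The core was searched as GAANNTTC and TTCNNGAA, each of which reads the same on both strands, in windows of 250 bases before to 50 after the start. It was present in 4946 of 32851 such windows of the RefSeq table, which is 15.1%. Among the members with a window in the table, Hsph1 held 3 cores in each of its 2 windows, of which 2 overlapped, Jun held 1, and Dnajb1, Fos and Junb held 0. Hsp90aa1, Hspa8 and Egr1 were not analysed here for motifs. The near-identity of Hspa1a and Hspa1b could mix their counts: 49.3% of the 90-base windows of the Hspa1a transcript and 52.3% of those of Hspa1b occur in the other gene, but 0 of 411 windows in the last 500 bases, where 3′ tags fall, do so in either.

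After filtering, 7545 to 10175 cells per library were used, from totals of 84009744 to 188030429 UMIs, with median depths of 6305 to 10383 UMIs per cell. Of the barcodes, 15 to 35 were shared between any pair of libraries. Prmt9 itself was at 11.4 CPM in the MA9 gate of BM-Ctrl (10.3 to 12.6) and 6.0 CPM in that of BM-shPrmt9 (5.04 to 7.09). Over all cells used Prmt9 was at 10.5 CPM in BM-Ctrl and 6.92 CPM in BM-shPrmt9. In Spleen-Ctrl and Spleen-shPrmt9 it was at 13.1 and 7.05 CPM. These levels pool all cell types, whose make-up differed between libraries, with globin at 2.26% and 17.2% of UMIs in the same spleen libraries. Prmt9 was not computed for single types other than MA9, so the pooled levels do not show where it was lower. The marrow libraries held 0 UMIs of 4 Y-linked genes in T and B cells and the spleen libraries 223 and 196 CPM, so the marrow and the spleen of a group were not from 1 animal, and tissue and animal cannot be told apart. All 6 MA9 markers were detected in the MA9 gate of all 4 libraries, all 8 T cell markers in the T gates, all 9 B cell markers in the B gates and all 8 erythroid markers in the erythroid gates. The MA9 gate also expressed all 5 neutrophil progenitor markers, at 8608 CPM in BM-Ctrl, so the MA9 and neutrophil progenitor gates overlap in identity. Only 12 and 23 MA9-gated cells were in the spleen libraries.

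The members differed by orders of magnitude in level. Hsp90aa1 and Hspa8 held most of the heat-shock UMIs in every gate of 20 or more cells. Over these gates and libraries, subsets of T cells aside, Hsp90aa1 ranged from 92.9 CPM in mature neutrophils of Spleen-shPrmt9 to 1566 CPM in neutrophil progenitors of BM-shPrmt9. Hspa8, the constitutive Hsc70, ranged among the same gates from 58.8 CPM in erythroid cells of Spleen-shPrmt9 to 1539 CPM in T cells of BM-shPrmt9. Dnajb1 (Hsp40), which hands clients to Hsp70, and Hsph1 (Hsp110), its nucleotide exchange factor, stayed far lower, at no more than 80.2 and 114 CPM. The highest values of these last members were both in erythroid cells of BM-shPrmt9.

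**Figure D1:**
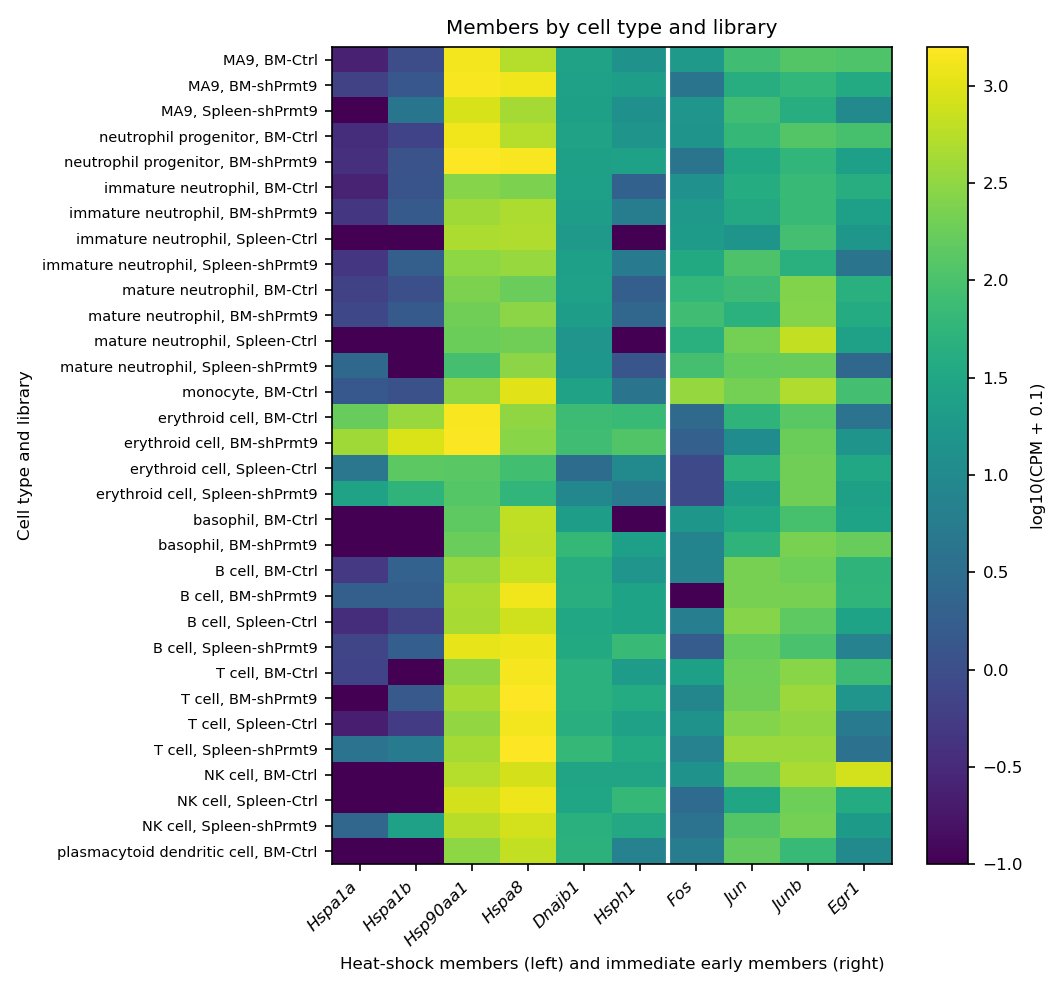
Level of each of the 10 members (columns) in each cell type and library with at least 20 cells (rows), as log10 of CPM plus 0.1, with the heat-shock members left of the white line. Hsp90aa1 and Hspa8 are bright in most rows, while Hspa1a and Hspa1b are bright in the erythroid rows.

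Hspa1a and Hspa1b, the stress-inducible Hsp70 genes, were near 0 outside erythroid cells. In the erythroid gate Hspa1a was at 165 CPM in BM-Ctrl, 406 in BM-shPrmt9, 4.51 in Spleen-Ctrl and 26.5 in Spleen-shPrmt9. Hspa1b was at 356, 904, 139.7 and 53.1 CPM in the same order. Both genes had higher CPM in the marrow than in the spleen libraries. Globin took 68.3% and 56.6% of erythroid UMIs in BM-Ctrl and BM-shPrmt9, and 82.7% and 86.0% in Spleen-Ctrl and Spleen-shPrmt9. A larger globin share lowers the CPM of other genes, and its part in the difference between tissues was not tested. In MA9 cells of marrow Hspa1b was at 0.875 CPM with Ctrl and 1.3 CPM with shPrmt9, and in B cells its level was at most 1.99 CPM in any library. The next highest gate of 20 or more cells was NK cells of Spleen-shPrmt9, at 25.2 CPM, where 31 of 33 UMIs lay in 1 cell.

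A small number of erythroid cells carried these transcripts. Of 451 erythroid cells of BM-Ctrl, 63 held an Hspa1b UMI and 8 held at least 50% of the 915 Hspa1b UMIs. Of 421 in BM-shPrmt9, 37 held one and 3 held at least 50% of 1983. In Spleen-shPrmt9, 63 of 1333 cells held one and 1 cell had 381 of 843 UMIs, and in Spleen-Ctrl 12 of 125 held one and 1 cell had 91 of 186. So the summed level in each library was set by a few cells with very many transcripts, and not by a shift of the whole gate.

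With every cell thinned to 1000 UMIs, the share of erythroid cells with an Hspa1b UMI was 8.65% in BM-Ctrl (exact binomial 95% interval 6.13 to 11.8, 416 cells, 35 shallower cells left out). It was 7.12% in BM-shPrmt9 (4.75 to 10.2, 379 cells, 42 left out), 4.27% in Spleen-Ctrl (1.4 to 9.69, 117 cells, 8 left out) and 1.79% in Spleen-shPrmt9 (1.14 to 2.68, 1283 cells, 50 left out). Without thinning the shares were 14%, 8.79%, 9.6% and 4.73%. The thinned share in T cells, taken as a type that makes little inducible Hsp70 at rest, was 0% of 239 cells in BM-Ctrl, which allows a share of up to 1.53% (upper exact binomial bound). In BM-shPrmt9 it was 0% of 79 cells, which allows up to 4.56%, and in Spleen-shPrmt9 0.352%. Median depths were 5754 and 6759 UMIs for the thinned erythroid and T cells of BM-Ctrl, 4788 and 7476 for those of BM-shPrmt9, and 12835 and 8702 for those of Spleen-shPrmt9. The share of Hspa1b cells in the marrow erythroid gates was therefore above that in T cells in BM-Ctrl, and in BM-shPrmt9 its lower bound lay just above the T cell upper bound, while the intervals of the marrow pair overlapped.

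The pair was found together in marrow. Of the erythroid cells with an Hspa1a UMI, 26 of 35 in BM-Ctrl and 14 of 19 in BM-shPrmt9 also held Hspa1b, which is 74.3% and 73.7%, and taken the other way 41.3% and 37.8% of the cells with Hspa1b held Hspa1a. In Spleen-shPrmt9 it was 13 of 37 and in Spleen-Ctrl 1 of 3. Cells with Hspa1b were also richer in the other chaperones. In BM-Ctrl, Hsp90aa1 was at 4709 CPM in the 63 cells with Hspa1b and 1000.1 CPM in the 388 without. In BM-shPrmt9 the same levels were 11364 and 517 CPM, and Hsph1 was at 961 against 30.5 CPM. Globin made up a like share of UMIs in both sets of BM-Ctrl, 65.5% with Hspa1b and 68.7% without, and of BM-shPrmt9, 55.7% and 56.7%. Jun was at 47.9 CPM in BM-Ctrl cells with Hspa1b and 55.3 CPM in those without. In the other libraries Jun was higher in the cells with Hspa1b, at 40.9 against 8.01 CPM in BM-shPrmt9, 224 against 35.3 in Spleen-Ctrl (12 cells with Hspa1b) and 163 against 16.1 in Spleen-shPrmt9. In spleen the globin shares differed, at 70.4% with Hspa1b and 83.6% without in Spleen-Ctrl. In Spleen-shPrmt9 they were 74.3% and 86.4%. The part of globin in the spleen values was not tested. These cells were divided by a measured member, so the values are a description.

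In BM-Ctrl heat-shock levels were lowest in the erythroid cells richest in globin. In BM-Ctrl the summed heat-shock level was 15386 CPM in the 26 cells with under 10% globin UMIs and 12214 CPM in the 48 cells of 10 to 30%. It was 5557, 2596 and 837 CPM in the 47, 95 and 235 cells of the bins from 30, 50 and 70%. As a rising globin share lowers the CPM of every other gene, the level per 1000000 UMIs other than globin was computed too, and it went from 15975 in the first bin to 3919.8 in the last. In BM-shPrmt9 the CPM were 5728, 3487, 9754, 2618 and 506 over the 5 bins, with the highest level in the middle bin of 66 cells, and per 1000000 UMIs other than globin the last bin was at 2194. Single cells of that middle bin held 324 of its 586 Hspa1a UMIs and 450 of its 1036 Hspa1b UMIs. The bins were not recomputed without their top cells. The marrow libraries differed by 1.36 times over the whole gate, while in the 50 to 70% bin their levels were 2596 (2456 to 2742) and 2618 (2500.1 to 2740.1) CPM, and in the highest bin BM-shPrmt9 was the lower. In spleen, 98 of 125 erythroid cells of Spleen-Ctrl and 1025 of 1333 of Spleen-shPrmt9 had over 70% globin, at 171 and 162 CPM, whose intervals overlapped. Per 1000000 UMIs other than globin the last bin of Spleen-shPrmt9 was not the lowest, at 1509.5 against 1232 in the bin from 30%. The other bins of Spleen-Ctrl held 3 to 13 cells each, too few to read.

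**Figure D2:**
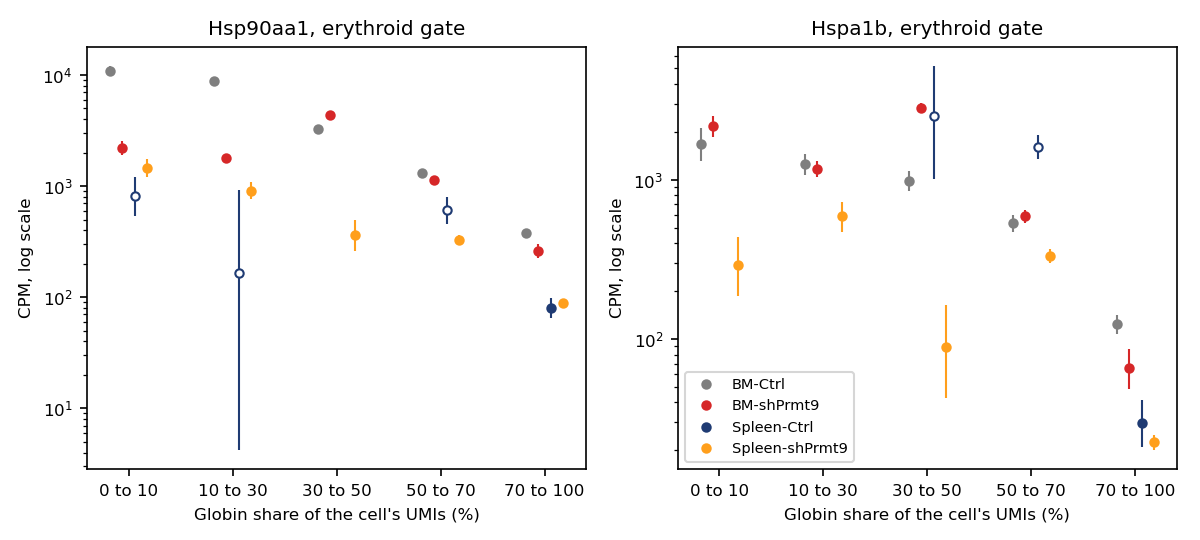
Hsp90aa1 (left) and Hspa1b (right) in the erythroid gate, as CPM on a log axis, against the globin share of the cell's UMIs in 5 bins. Points are libraries, bars are 95% Poisson intervals, open points rest on fewer than 20 cells and bins at 0 CPM are not drawn. Both genes are lowest in cells with over 70% globin in BM-Ctrl, BM-shPrmt9 and Spleen-shPrmt9.

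Over the whole erythroid gate Hspa1a was 2.46 times as high in BM-shPrmt9 as in BM-Ctrl (95% interval 2.19 to 2.77), and Hspa1b 2.54 times (2.35 to 2.75). At least 2-fold higher levels were seen for 2 of the 6 heat-shock members, against 22.5% of the 4653 genes with 20 or more UMIs, a share that the members' 2 of 6 does not lie far from. The median log2 ratio of all these genes was 0.50, and globin took 68.3% of erythroid UMIs in BM-Ctrl and 56.6% in BM-shPrmt9. The heat-shock sum had a log2 ratio of 0.44, which turned to -0.01 with globin and mitochondrial UMIs left out of the total and to -0.22 as a mean over cells. For Hspa1a a mean over cells gave -0.22 in place of 1.30, so no direction is given for it. In spleen the 2 genes parted: Hspa1a was 5.88 times as high with shPrmt9 (2.68 to 16.1, from 6 UMIs in Spleen-Ctrl) and Hspa1b 0.38 times (0.324 to 0.448). Leaving out the top cell on both sides the ratio was 4.4 (1.48 to 21.5) for Hspa1a and 0.406 (0.325 to 0.512) for Hspa1b. Of the 6 heat-shock members, 2 were at least 2-fold higher (background 9.42%) and 1 at least 2-fold lower (background 25.5%).

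The immediate early genes of erythroid cells differed in direction. Jun was at 54.4 CPM in BM-Ctrl and 10.9 in BM-shPrmt9, a ratio of 0.201 (0.125 to 0.311), where 1.20% of genes were at least 2-fold lower. Egr1 was at 3.89 and 15 CPM, from 10 and 33 UMIs, and Junb at 131 and 181. In spleen Jun was at 47.3 and 21.4 CPM, a ratio of 0.453 that was 0.576 when the top cell on both sides was left out, beside a median log2 ratio of all genes of -0.49.

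Over all cells, erythroid cells had the highest heat-shock sum of MA9, progenitor, erythroid and T cells in both marrow libraries. They came first with 2409 CPM in BM-Ctrl and 3277 CPM in BM-shPrmt9. That rank is of summed UMIs and not of the median cell. Leaving out the top cell of each gate, erythroid cells were at 2223 CPM in BM-Ctrl and 2833 CPM in BM-shPrmt9. Neutrophil progenitors of BM-shPrmt9 were then at 3030 CPM, so the first place of erythroid cells there was lost without the top cells. The median erythroid cell had 88.3 CPM of Hsp90aa1 in BM-Ctrl and 0 in BM-shPrmt9, and 0 CPM of Hspa8 in both. The median MA9 cell had 1197 and 1259 CPM of Hsp90aa1, and 431 and 1011 CPM of Hspa8. In the sums, MA9 cells and neutrophil progenitors followed at 1894 and 1882 CPM in BM-Ctrl, whose intervals overlapped. In BM-shPrmt9 they were at 2752 and 3043 CPM. T cells came next at 1761 and 2069 CPM, and mature neutrophils were last at 440.1 and 514 CPM. The immature and mature neutrophils thus held a small part of the heat-shock level of the progenitor gate. In Spleen-Ctrl the order was NK cells at 2121 CPM, T cells at 1715, B cells at 1297, immature neutrophils at 1005 (26 cells), and mature neutrophils and erythroid cells at 389.8 and 374, which did not differ beyond counting error. In Spleen-shPrmt9 B cells stood first at 2458 CPM and T cells second at 2066.

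**Figure D3:**
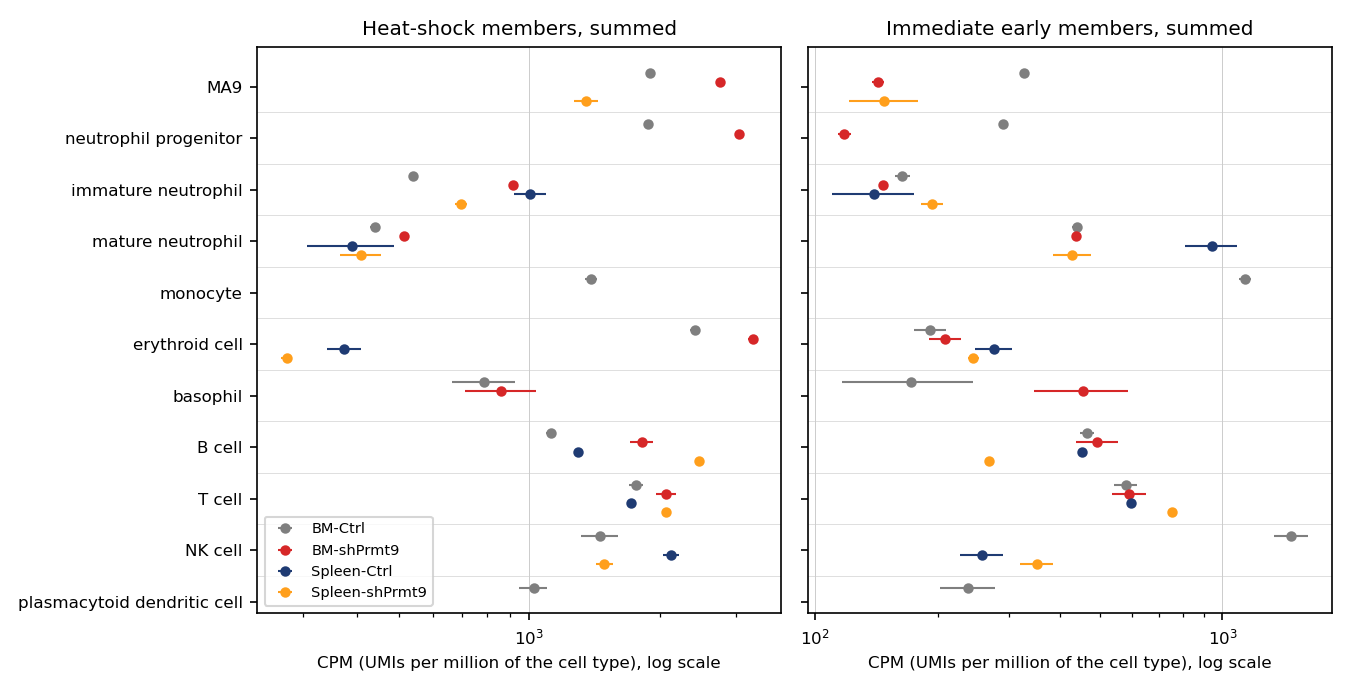
Summed CPM of the 6 heat-shock members (left) and the 4 immediate early members (right), on log axes, for cell types with at least 20 cells in a library, where points are libraries and bars 95% Poisson intervals. In the marrow the heat-shock sum of MA9 cells and neutrophil progenitors is higher, and the immediate early sum lower, in BM-shPrmt9 than in BM-Ctrl.

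The immediate early sums followed another order. In BM-Ctrl, NK cells had 1474 CPM, from 28 cells, and monocytes 1136 CPM. NK cells owed this to Egr1 at 824 CPM, and monocytes to Junb at 492 and Fos at 346 CPM, the highest Fos level of any gate with 20 or more cells. T cells, B cells and mature neutrophils lay at 579, 465 and 440.0 CPM, the last 2 with overlapping intervals. MA9 cells were at 325 CPM, and erythroid cells, basophils and immature neutrophils did not differ beyond counting error at 192, 172 and 164 CPM. In Spleen-Ctrl mature neutrophils were first at 942 CPM (58 cells), of which Junb gave 658. In Spleen-shPrmt9 T cells were first at 751 CPM. Cell types differed in which member they used. In spleen B cells of Spleen-Ctrl Jun was the highest at 273 CPM, in mature neutrophils of BM-Ctrl it was Junb at 256 CPM, and Fos stayed at or under 7.55 CPM in the B cells of all 4 libraries.

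In MA9 cells of the marrow Hspa8 was higher in BM-shPrmt9, while the other 4 heat-shock members with enough UMIs to compare differed by less than 2-fold. Hspa8 was at 535 CPM in BM-Ctrl and 1268 CPM in BM-shPrmt9, a ratio of 2.37 (2.33 to 2.41). Hsp90aa1 was at 1318 and 1434 CPM, a ratio of 1.09 (1.07 to 1.1). Hsph1 was at 14.2 and 22.6 CPM, and Dnajb1 at 25.9 and 24.9 CPM with a ratio interval of 0.863 to 1.07. So 1 of the 5 heat-shock members with 20 or more UMIs, Hspa8, passed 2-fold, against 11.0% of the 12296 genes tested. The inducible genes hardly took part: Hspa1a had 5 and 13 UMIs, and Hspa1b 30 and 30. The ratio of the heat-shock sum was 1.45 (1.44 to 1.47), and without Hsp90aa1 and Hspa8 it was 1.2 (1.11 to 1.3).

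All 4 immediate early members were lower in MA9 cells of BM-shPrmt9. Fos was at 17.6 CPM in BM-Ctrl and 4.06 in BM-shPrmt9, a ratio of 0.23 (0.183 to 0.286). Egr1 was at 109.8 and 36.7 CPM, a ratio of 0.334 (0.309 to 0.36). Jun was at 80.8 and 42 CPM, and Junb at 117 and 59.9 CPM, ratios of 0.52 and 0.512. Fos and Egr1, 2 of the 4, were at least 2-fold lower, against 6.97% of genes tested, and the ratio of the sum was 0.438 (0.422 to 0.456). The difference ran through the cells: the median cell had 4 Egr1 UMIs in BM-Ctrl and 0 in BM-shPrmt9 at median depths of 57106 and 52647 UMIs, and the median Junb count was 6 and 2. With 1000 UMIs per cell, Egr1 was seen in 11.3% of 576 cells (8.82 to 14.2) and 5.57% of 413 (3.56 to 8.24), no cell being left out, and unthinned in 86.8% and 42.6%. Erythroid cells of the same thinning gave 0.24% in BM-Ctrl and 1.06% in BM-shPrmt9, at median depths of 5754 and 4788 UMIs.

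Markers of other cells moved with the library in this gate. The 7 immature neutrophil markers, all detected, summed to 589 CPM in BM-Ctrl and 1716 CPM in BM-shPrmt9. The 6 monocyte markers, all detected, summed to 3507 and 6430.4 CPM, and the 8 erythroid markers to 8.31 CPM with Rhag at 0 and 96.4 CPM with none at 0. Immature neutrophils had a heat-shock sum of 539.9 and 919 CPM, beside 1894 and 2752 CPM in MA9 cells. Their immediate early sum was at 164 and 147 CPM, beside 325 and 143 CPM in MA9 cells. The part of such other cells in the differences was not tested for either sum.

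The neutrophil progenitor gate, which overlaps with MA9 in markers, gave like values. Hspa8 was at 532 CPM in BM-Ctrl and 1426 in BM-shPrmt9, the only heat-shock member of 5 past 2-fold (background 9.74%). Egr1 was at 93.8 and 23.5 CPM, Fos at 14.7 and 4.02, and Junb at 118 and 57.5, the 3 of 4 immediate early members at least 2-fold lower (background 5.45%). Jun was at 63 and 33.1 CPM, but its log2 ratio of -0.93 turned to 0.17 when any 1 UMI counted as a detected marker. MA9 cells of spleen, 12 with Ctrl and 23 with shPrmt9, were too few for a ratio, and the 23 cells of Spleen-shPrmt9 had Hspa8 at 431 and Egr1 at 9.86 CPM.

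**Figure D4:**
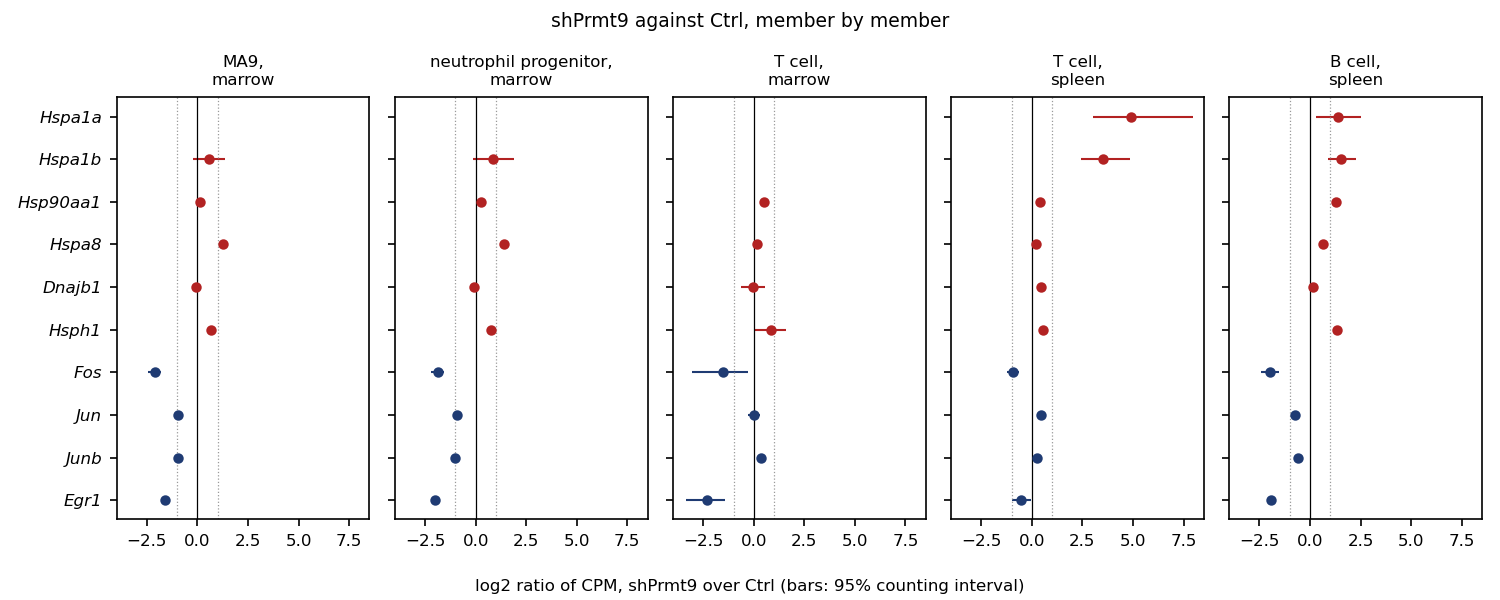
log2 ratio of CPM, shPrmt9 over Ctrl, of each member with at least 20 UMIs in 5 comparisons, with heat-shock members in red, immediate early members in blue, bars for the 95% counting interval and dotted lines at 2-fold. Hspa8 is past 2-fold in MA9 cells and neutrophil progenitors of marrow, and Egr1 and Fos lie left of 0 in all 5 panels, although Egr1 in T cells of spleen lies right of 0 when only cells of 5000 to 10000 UMIs are used.

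In lymphocytes and mature neutrophils of the marrow the immediate early sums lay close together at the main settings. The sum in T cells was 579 CPM in BM-Ctrl and 589.9 CPM in BM-shPrmt9, in B cells 465 and 492, and in mature neutrophils 440.0 and 436, with ratio intervals that included 1 for all 3 types. Under other processing settings the ratio ranged from 0.996 to 1.24 in T cells and from 0.988 to 1.41 in B cells. In mature neutrophils it ranged from 0.944 to 1.72, so the closeness depended on the setting. Of 8 marrow types compared, the ratio interval of the immediate early sum lay below 1 in 3 (MA9, neutrophil progenitors and immature neutrophils), included 1 in 4, and lay above 1 in basophils alone. In immature neutrophils, at 164 and 147 CPM, the log2 ratio of -0.16 turned to 0.52 as a mean over cells. In basophils 35 of 59 UMIs of BM-shPrmt9 lay in 1 cell of 20, and leaving out the top cell on both sides the ratio was 1.56 (0.835 to 2.91). Within T cells the sum hid opposite members. Egr1 was at 76.9 and 15.4 CPM, a ratio of 0.201 (0.0979 to 0.371), Fos at 24.1 and 8.43, and Junb at 287 and 371 CPM, a ratio of 1.29 (1.11 to 1.5). Egr1 and Fos were the 2 of 4 at least 2-fold lower in T cells of marrow, against 4.90% of genes tested, and 0 of 4 heat-shock members were higher (background 3.71%).

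The heat-shock sum, by contrast, was higher with shPrmt9 in nearly every marrow type. Its ratio interval lay above 1 in 7 of 8 types and below 1 in 0, with ratios of 1.1 to 1.7, but in erythroid cells the direction turned with the scaling, as given above. B cells were at 1122 CPM in BM-Ctrl (944 cells) and 1815 in BM-shPrmt9 (51 cells), and immature neutrophils at 539.9 and 919. The B cells differed in median depth, at 4730.5 and 8776 UMIs. Among B cells of 5000 to 10000 UMIs, 337 and 27 cells, the difference was smaller, at 1139 (1095 to 1184) and 1411 (1251 to 1586) CPM. T cells in that window were at 1731 and 2028 CPM. The CD8 T cells of marrow had a ratio of 1.04 (0.969 to 1.12) over all depths. Hspa8 had a ratio interval above 1 in 6 of 8 marrow types, Hsp90aa1 in 5 and Hsph1 in 5 of 7, whereas Dnajb1 had one in 0 of 7. Without Hsp90aa1 and Hspa8 the interval of the remaining sum lay above 1 in 3 of 7 types. In immature neutrophils Hspa8, at 238 and 491 CPM, and Hsph1, at 1.92 and 5.8 CPM, were the 2 of 5 heat-shock members past 2-fold, where 10.5% of genes were higher and 2.54% lower. In mature neutrophils 0 of 10 members passed 2-fold, with 5.49% of genes higher and 4.70% lower. In B cells 0 of 8 members did, with 5.36% and 9.91%, where Fos had 38 and 0 UMIs and was set against the level of 3 UMIs, 5.35 CPM, that stands in for a 0. In basophils Egr1 and Junb, 2 of 4 members tested, were higher against 4.24%, with 6.30% of genes lower. Leaving out the top basophil on both sides, Junb had a ratio of 1.54 (0.65 to 3.7) and Egr1 was at 1 and 4 UMIs, so neither call stood. All of these ratios share the same 2 libraries, so they are not separate observations of an effect.

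T cells of the spleen, 1859 and 2566 cells, had more of both sums with shPrmt9. The heat-shock sum was at 1715 CPM in Spleen-Ctrl and 2066 in Spleen-shPrmt9, a ratio of 1.21 (1.19 to 1.22). The immediate early sum was at 597 and 751 CPM, a ratio of 1.26 (1.23 to 1.29). Among cells of 5000 to 10000 UMIs, 1244 and 1378 cells, the sums were at 1597 and 2107 CPM for heat shock, and at 694 and 851 CPM for the immediate early genes. Junb was the most abundant of the latter, at 314 and 377 CPM, with Jun at 264 and 364. Fos went the other way, at 13.7 and 7.09 CPM, and Egr1 was low in both at 5.17 and 3.6 CPM, with a log2 ratio of -0.52 that was 1.23 in the depth window. None of the 4 passed 2-fold. CD4 T cells held more immediate early transcripts than CD8 T cells in both spleen libraries, at 712 against 522 CPM in Spleen-Ctrl and 880.0 against 607 in Spleen-shPrmt9. The ratios of the subsets differed too. Leaving out the top cell on both sides, that of the heat-shock sum was 1.42 (1.37 to 1.47) in CD4 and 1.07 (1.05 to 1.09) in CD8 T cells. For Hspa8 it was 1.39 (1.34 to 1.45) and 1.004 (0.982 to 1.03). For Fos it was 0.185 (0.112 to 0.298) and 0.911 (0.63 to 1.32).

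Hspa1a and Hspa1b were the 2 of 6 heat-shock members past 2-fold in T cells of spleen, where 4.84% of genes were at least 2-fold higher. Hspa1a had 2 UMIs in Spleen-Ctrl and 95 in Spleen-shPrmt9 (0.128 and 3.8 CPM), and Hspa1b 7 and 127 (0.447 and 5.09 CPM). Leaving out the top cell on both sides, the counts were 1 and 57 for Hspa1a, and 5 and 100 for Hspa1b. Erythroid material differed in the same cells: globin made up 0.0301% of T cell UMIs in Spleen-Ctrl and 0.362% in Spleen-shPrmt9. The 8 erythroid markers summed to 5.55 CPM with Rhag at 0 and to 22.1 CPM with all 8 detected. Its part in the Hspa1a and Hspa1b difference was not tested.

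B cells of the spleen had a heat-shock sum of 1297 and 2458 CPM, a ratio of 1.9 (1.88 to 1.92), and among cells of 5000 to 10000 UMIs of 949.5 and 1189 CPM. Hsp90aa1 was at 447 CPM in Spleen-Ctrl and 1099 in Spleen-shPrmt9, a ratio of 2.46 (2.42 to 2.5). Hspa8 was at 789 and 1250.3 CPM, and Hsph1 at 27.6 and 70.8 CPM. Hspa1a, Hspa1b, Hsp90aa1 and Hsph1 were the 4 of 6 past 2-fold, against 5.21% of genes, with Hspa1a at 12 and 22 UMIs and Hspa1b at 28 and 58. The cells differed in depth as well, with median counts of 6363 UMIs in Spleen-Ctrl and 17688 in Spleen-shPrmt9. Among cells of 5000 to 10000 UMIs, 3126 and 276 cells, Hsp90aa1 was at 307 and 315 CPM, Hsph1 at 18.8 and 18.6, and Hspa8 at 591 and 808. At matched depth the Hsp90aa1 and Hsph1 differences were thus within counting error and that of Hspa8 was smaller.

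The immediate early sum of these B cells was lower with shPrmt9. Egr1 was at 26.8 CPM in Spleen-Ctrl and 7.08 in Spleen-shPrmt9, a ratio of 0.265 (0.23 to 0.304), and Fos at 6.13 and 1.56 CPM. These were the 2 of 4 members at least 2-fold lower, against 15.0% of genes tested, whose median log2 ratio was -0.22. In the depth window Egr1 was at 32.3 and 21 CPM and Fos at 7.31 and 5.13 CPM, and neither was past 2-fold. Jun was at 273 and 162 CPM, and Junb at 145 and 97.1. The sum was at 451 and 268 CPM, a ratio of 0.594 (0.579 to 0.609), and in the depth window at 504 and 299.6 CPM. The make-up of the gate moved too: the 9 B cell markers summed to 10431 and 6217 CPM, and the 6 plasma cell markers to 671 CPM with Tnfrsf17 at 0 and 996 CPM with all 6 detected. Its part in the differences was not tested. In B cells of marrow, where BM-shPrmt9 had 51, Egr1 was at 53.7 and 55.3 CPM. In BM-shPrmt9 17 of its 31 UMIs lay in 1 cell. Leaving out the top cell on both sides, Egr1 was at 50.1 and 25.4 CPM, a ratio of 0.506 (0.273 to 0.866).

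NK cells of the spleen, 73 and 131 cells, went against the T and B cells for the constitutive chaperones. Hsp90aa1 was at 804 CPM in Spleen-Ctrl and 565 in Spleen-shPrmt9, and Hspa8 at 1225 and 816. Jun was higher at 31 and 119 CPM, a ratio of 3.83 (2.61 to 5.75), and Egr1 was at 38.5 and 19.1 CPM. Jun and Hspa1b passed 2-fold upwards (background 10.8%) and Egr1 downwards (background 4.46%), the last just past the limit. Hspa1b had 0 and 33 UMIs, 31 of them in 1 cell, and without that cell 0 and 2 UMIs, so its call ended. In immature neutrophils Jun was at 14.7 CPM in Spleen-Ctrl, from 8 UMIs in 26 cells, and 107 in Spleen-shPrmt9, from 606 UMIs in 295 cells, a ratio of 7.29 (3.68 to 17), while Egr1 was at 16.6 and 4.07 CPM. Among their genes 12.9% were at least 2-fold higher and 5.91% lower. In mature neutrophils of spleen Junb was at 658 CPM in Spleen-Ctrl and 168 in Spleen-shPrmt9, a ratio of 0.256 (0.20 to 0.328), and Fos at 45.6 and 92.9 CPM, with background shares of 17.6% lower and 9.03% higher. Over the 6 spleen types compared, the heat-shock sum had a ratio interval above 1 in 2 and below 1 in 3, and the immediate early sum above 1 in 3 and below 1 in 3. In erythroid cells of spleen both sums turned direction with TMM factors, which scale on the bulk of genes. The median log2 ratio of all genes was -0.31 in mature neutrophils of spleen, -0.22 in those of marrow and 0.17 in NK cells of spleen, and within 0.1 of 0 in the other types not named above. Spleen therefore had no common direction for either sum.

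Other genes of the same pathways were taken as 24 heat-shock and chaperone genes and 26 immediate early genes with their feedback regulators. In MA9 cells of marrow 0 of 21 tested chaperone companions were at least 2-fold higher (background 11.0%) and 1 lower (background 6.97%), with a median log2 ratio of -0.08 against 0.00 for all genes. The gene past 2-fold was Hspa9, the mitochondrial Hsp70, at 376 CPM in BM-Ctrl and 161 in BM-shPrmt9. Chordc1, a partner of Hsp90, was at 85.8 and 52.2 CPM, and Hspa5, the chaperone BiP of the endoplasmic reticulum, at 874 and 591. At the other end, the Hsp70 partner St13 was at 254 and 372 CPM, the Hsp40 gene Dnajb4 at 16.7 and 23.6, and the co-chaperone gene Bag3 at 6.62 and 8.03, with a ratio interval of 0.993 to 1.48. None of the 21 had a ratio as high as that of Hspa8.

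Of 25 tested immediate early companions in MA9 cells, 6 were at least 2-fold lower and 1 higher, against background shares of 6.97% and 11.0%, with a median log2 ratio of -0.04. The stress factor gene Atf3 had 129 UMIs in BM-Ctrl and 22 in BM-shPrmt9, a ratio of 0.252 (0.153 to 0.399). Ppp1r15a, which encodes the phosphatase subunit Gadd34, was at 56.7 and 14.5 CPM, and the nuclear receptor gene Nr4a2 at 2.83 and 0.993. Nfkbia, the inhibitor of NF-kB, was higher at 92.5 and 201 CPM, a ratio of 2.18, and Gadd45b and Nr4a1 had ratios of 1.97 and 1.97.

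In T cells of spleen 1 of 21 chaperone companions was at least 2-fold higher and 0 lower, against background shares of 4.84% and 8.74%. It was Hspa4l, an Hsp110 gene, at 10.9 and 96.6 CPM. Hspa5 came next with a ratio of 1.94 and then Hsp90ab1 with 1.55, and the lowest 3 ratios were those of Bag3, Fkbp4 and Hsf1, partners and regulator of the chaperones, at 0.519, 0.727 and 0.875. Among the 26 immediate early companions 9 were at least 2-fold higher and 1 lower. Klf4 was at 3.38 and 34.5 CPM, Gadd45b at 35.8 and 172, and Nr4a1, a gene of antigen-receptor signalling, at 2.81 and 11.9. Klf2, a factor of resting T cells, was lower at 803 and 543 CPM, and Egr3 and Srf had ratios of 0.446 and 0.678.

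In B cells of spleen 5 of 22 chaperone companions were at least 2-fold higher and 0 lower, against background shares of 5.21% and 15.0%. The companions were taken over all cells, whose depth differed between the libraries as given above, and its part was not tested. The mitochondrial chaperonin genes Hspd1 and Hspe1 were at 252 and 809 CPM and at 439.5 and 1263 CPM, and Hsp90ab1, the constitutive Hsp90, at 1869.8 and 4841 CPM. Bag3, Hsf1 and Dnajb4 had the lowest ratios, 0.622, 0.793 and 0.85. Of the 26 immediate early companions 11 were at least 2-fold lower, against 15.0% of all genes, and 2 higher. Egr2 was at 7.78 and 1.38 CPM, Fosb at 14.4 and 2.82, and Nr4a1 at 28.4 and 5.85. Atf3 went the other way at 3.65 and 26.1 CPM, and Gadd45b and Ier3 had ratios of 1.72 and 1.67. Nr4a1 was thus lower in B cells and higher in T cells of the same spleen library.

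**Figure D5:**
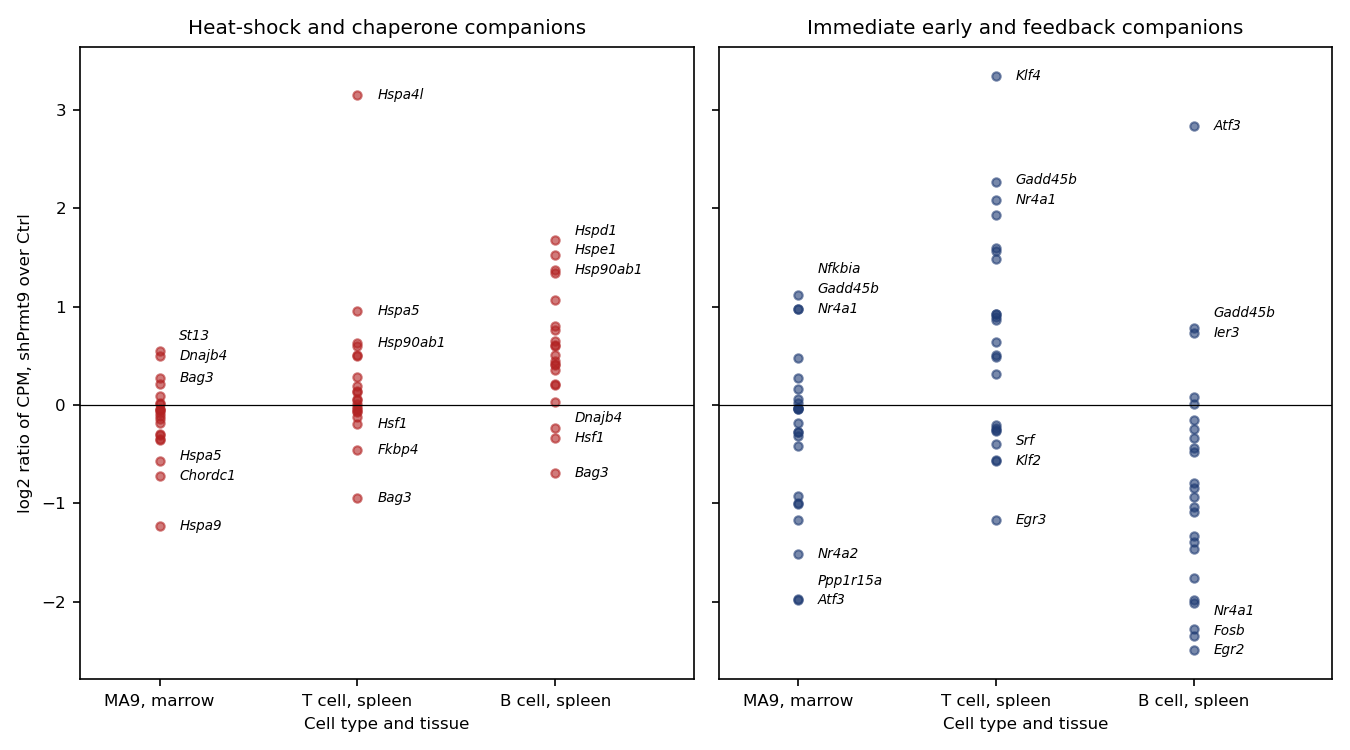
log2 ratio of CPM, shPrmt9 over Ctrl, of companion genes with at least 20 UMIs in each library, 1 point a gene, for chaperones (left) and immediate early genes with their feedback regulators (right), in 3 comparisons. The 3 highest and 3 lowest genes of each column are named, and the immediate early column of B cells of spleen lies mostly under 0 while that of T cells of spleen reaches above 3 with Klf4.

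Across the 27 combinations of cell type and library with at least 50 cells, the members fell into loose groups. Pearson's r of log2(CPM + 1) was 0.909 for Hspa1a with Hspa1b, 0.727 for Hsp90aa1 with Hsph1 and 0.632 for Hspa8 with Dnajb1. Among the immediate early genes it was highest for Jun with Junb, at 0.423, and 0.109 for Fos with Egr1. For Hspa1b with Hspa8 it was -0.45. The 27 points share libraries and lineages, so these values describe them only. Among 5896 genes outside the lists that reached 50 CPM in some combination, Bcas2, Rangap1, Mcm7, Exoc4 and Dek were most like the heat-shock sum, with r of 0.889 to 0.912. Btg1, Maf, Relb, Socs3 and Klf3 were most like the immediate early sum, with r of 0.74 to 0.809.

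Within a gate the members were only loosely tied from cell to cell. Over 576 MA9 cells of BM-Ctrl, Spearman's rho of the members' CPM was 0.382 for Junb with Egr1, 0.348 for Jun with Egr1 and 0.0551 for Hsp90aa1 with Hspa8. Over 413 MA9 cells of BM-shPrmt9 these were 0.204, 0.125 and 0.445. In erythroid cells Hspa1a with Hspa1b gave 0.517 in BM-Ctrl and 0.513 in BM-shPrmt9. Cells of 1 library share its depth and preparation and are not replicates.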

How the data were processed

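Cells of 4 libraries were captured with a droplet 3′ kit (10x Chromium v2). The deposited matrices hold raw UMI counts per gene and barcode, made by the authors with Cell Ranger on mm10 (version 6.0.2 in the matrix headers, 6.1.1 in the submitters' processing notes), with cell barcodes already selected. Barcodes with under 200 genes or over 20% mitochondrial UMIs were left out. Scanpy 1.11.5 gave scrublet scores, and because its own threshold marked from 0 to 183 cells a library, the 520 to 999 highest scores (0.8% per 1000 cells) were left out as doublets.

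Cells were gated, without clustering, on 15 lists of marker genes, of which no member is part. A marker counted as detected from 0.5 UMI per 10000, a gate needed at least 3 detected markers of its list, and the detected share of any list outside the same lineage had to be at most 50% of the leading one. Cells with 3 MA9 markers went to MA9 and not to neutrophil progenitors. Others were mixed or ungated. Counts were summed per gate and library, and CPM, exact 95% intervals (SciPy 1.17.1) and ratios were computed for types with at least 20 cells in both libraries. Genes were read as higher or lower past 2-fold among those with at least 20 UMIs over both libraries. Shares of cells were taken after thinning to 1000 UMIs. Fits across genes and p-values were not made, since each group is 1 library. The code was tested on simulated data. The alternatives were other marker thresholds, a mitochondrial limit of 10%, doublets kept, other totals, TMM factors (edgeR 4.0.16), means over cells, leaving out the highest cell, and a 1.5-fold limit.

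All 10 members are named. From the companion lists the 3 highest and 3 lowest ratios among genes with at least 20 UMIs in each library are named for MA9 cells of marrow and T and B cells of spleen, and for each sum the 5 genes most like it. 1 gene of the chaperone list is not reported here and was left out of its counts. The members and lists were chosen with earlier results of these data known. Promoters, for which 7 of 10 members had an entry, are from RefSeq, GRCm38.p6, and transcripts and exon counts are from GENCODE.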

Additional observations from a re-analysis of the deposited data

Results flagged for a closer look

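For 3 results the ratio of shPrmt9 over Ctrl lay on opposite sides of 1 in marrow and spleen, and the difference between the tissues was not tested, as each group is 1 library and the marrow and spleen libraries were not from 1 animal. The heat-shock sum of immature neutrophils had a ratio of 1.70 in marrow and 0.693 in spleen, where Spleen-Ctrl had 26 such cells. Under other settings the spleen ratio ranged from 0.597 to 1.68, so its direction turned. The heat-shock sum of erythroid cells had a ratio of 1.36 in marrow and 0.737 in spleen, and each of these erythroid ratios turned under at least 1 other scaling. The immediate early sum of immature neutrophils had a ratio of 0.896 in marrow and 1.39 in spleen. Its marrow ratio ranged from 0.802 to 2.14 under other settings, so its direction turned too.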

How the results depend on the processing

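Values are log2 ratios, shPrmt9 over Ctrl. No paired analysis was possible because the labels carry no replicate numbers and each group is 1 library, and for the same reason no replicate could be left out. Leaving out Hsp90aa1 and Hspa8, pooling the MA9 and neutrophil progenitor gates, and keeping only cells of 5000 to 10000 UMIs were chosen after seeing the data. Of the summed ratios of the 4 main comparisons, the companion counts and the thinned shares, 72 values stayed and 42 moved beyond their counting interval or by over 1.5 times, with none reversed. Only a ratio whose interval excluded 1 could count as reversed, so counts and shares could not. Nor could the immediate early sum of marrow T cells, whose lowest log2 ratio was -0.0057. Of the other values 540 stayed, 199 moved and 28 reversed. Where a value moved or reversed, the cause was not tested.

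The heat-shock sum of MA9 cells (0.54) was 0.62 with any 1 UMI counting as a marker, 0.65 with 1 UMI per 10000 needed, 0.59 with no runner-up limit, 0.45 as a mean over cells, 0.49 with TMM factors, 0.26 without Hsp90aa1 and Hspa8 and 0.62 with the progenitor gate added. Their immediate early sum (-1.19) was -1.30, -1.32, -1.10 (mean over cells) and -1.26 (with progenitors). In T cells of marrow, no runner-up limit gave 0.13 (from 0.23) and 0.31 (from 0.03). In T cells of spleen the heat-shock sum (0.27) was 0.32 as a mean over cells, 0.36 with TMM factors, 0.60 without Hsp90aa1 and Hspa8 and 0.40 in the depth window, and the immediate early sum (0.33) was 0.42 with TMM factors and 0.29 in the window. In B cells of spleen the heat-shock sum (0.92) was 0.89 at either marker threshold and without globin and mitochondrial UMIs, 0.999 as a mean over cells, 1.10 with TMM factors, 0.85 without Hsp90aa1 and Hspa8 and 0.32 in the window. Their immediate early sum (-0.75) was -0.71 with no runner-up limit, -0.80 as a mean over cells and -0.57 with TMM factors.

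Reversals were mostly in erythroid cells. Their heat-shock sum in marrow (0.44) was -0.025 at the stricter marker threshold, -0.16 with no runner-up limit, -0.22 as a mean over cells, -0.080 with TMM factors and -0.011 without globin and mitochondrial UMIs. In spleen (-0.44) it was 0.10 with doublets kept and 0.42 with TMM factors, and the immediate early sum (-0.17) was 0.014, 0.0033, 0.69 and 0.12 with no runner-up limit, as a mean over cells, with TMM factors and without globin and mitochondrial UMIs. For single members in erythroid cells, Hspa1a of marrow was -0.22 as a mean over cells, Hspa8 of marrow 0.019 with doublets kept, Hspa8 of spleen 0.36 and Junb of marrow -0.058 with TMM factors, and Hsph1 of marrow -0.026 at the stricter threshold and -0.084 with no runner-up limit. The immediate early sum of immature neutrophils of marrow (-0.16) was 0.21, 0.52 and 1.10 at the stricter threshold, as a mean over cells and in the window. In neutrophil progenitors Hsp90aa1 was -0.21 with any 1 UMI and -0.049 as a mean over cells, and Jun 0.17 with any 1 UMI. Without Hsp90aa1 and Hspa8 the heat-shock sum was -0.11 in mature neutrophils of marrow, 0.75 in immature neutrophils and 0.23 in NK cells of spleen. In the depth window Hsph1 of spleen B cells was -0.014 and Egr1 of spleen T cells 1.23.

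At 1.5-fold, chaperone companions past the fold numbered 0 higher and 2 lower in MA9 cells (0 and 1 at 2-fold), 4 and 1 in T cells (1 and 0) and 11 and 1 in B cells of spleen (5 and 0), and higher immediate early companions 3, 14 and 5 (1, 9 and 2). With no minimum beyond 1 UMI, 3 chaperone companions were higher in T cells. Unthinned shares of cells were 14.0% and 4.73% for Hspa1b in erythroid cells of BM-Ctrl and Spleen-shPrmt9 (8.65% and 1.79% thinned), and 86.8% and 42.6% for Egr1 in MA9 cells of BM-Ctrl and BM-shPrmt9 (11.3% and 5.57%). Depth limits what low members can show: 3 UMIs, the floor, correspond to 23.1 CPM in the 20 basophils of BM-shPrmt9 and 0.0875 CPM in MA9 cells of BM-Ctrl.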

Other observations

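Inducible Hsp70 transcripts were also looked for outside the gates. Cells whose markers met no gate held a heat-shock sum of 2172, 2025, 2224 and 1397 CPM in the Ctrl and shPrmt9 libraries of marrow and then in those of spleen. Their Hspa1b levels were 6.08, 90.2, 3.45 and 31.4 CPM. Cells with markers of more than 1 type held 13.1, 42.9, 1.1 and 14 CPM of Hspa1b.

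Smaller types gave values in 1 library each. The 40 plasma cells of Spleen-shPrmt9 had a heat-shock sum of 1479 CPM and an immediate early sum of 193 CPM, with 0 UMIs of Egr1. The 70 plasmacytoid dendritic cells of BM-Ctrl had sums of 1022 and 238 CPM, with 0 UMIs of Hspa1a and Hspa1b. In B cells of BM-shPrmt9, 17 of 31 Egr1 UMIs lay in 1 of 51 cells, and Fos had 0 UMIs.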
